A study of Mus musculus with 6 samples.

Results

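Expression of 10 genes of the ATF4 integrated stress response and serine pathway was examined in control and PGAM5 KD macrophages after LPS treatment. The genes were chosen by name, as the transcription factors Atf4, Atf5 and Ddit3, the regulators Trib3 and Sesn2, asparagine synthetase (Asns), the serine synthesis enzymes Phgdh and Psat1, and the mitochondrial folate enzymes Shmt2 and Mthfd2. They are 10 of the 54532 genes listed in every library. The symbol Ddit3 also stands for a second row of 105 exon bases, which held 0 fragments in all libraries and was not used. All 10 genes passed the filter of a mean of at least 1 FPKM (fragments scaled to exon length and to library depth) over the 6 libraries, Trib3 only through the PGAM5 KD libraries, since its mean in control libraries was 0.698 FPKM.

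The cells were iBMDMs, mouse bone marrow-derived macrophages immortalized by retroviruses that carry v-raf and v-myc. They received either a control shRNA or an shRNA against PGAM5, a protein phosphatase of mitochondria, and RNA was taken after 4 hours with LPS at 100 ng/ml. Each group had 3 libraries, and libraries from cells without LPS were not analysed here, so all values describe LPS-treated cells. How many shRNA sequences were used, whether a KD line was 1 clone, and whether replicates were separate cultures is not given in the sources used here, and p-values then measure only the spread between these libraries.

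In the integrated stress response, kinases that sense viral RNA, amino acid shortage, heme shortage or unfolded protein phosphorylate the translation factor eIF2 on its alpha subunit. General translation slows, while ATF4 mRNA is translated more, so ATF4 activity is largely set after transcription and its mRNA level is not a measure of it. ATF4 then activates genes for amino acid uptake and synthesis, for tRNA charging, and for serine and mitochondrial one-carbon metabolism, often together with C/EBP factors at a composite C/EBP-ATF element. DDIT3 (CHOP) and TRIB3 are among its targets, and TRIB3 restrains the response.

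Letters of this composite element were looked for as TGATGNAA, or its reverse complement TTNCATCA, in RefSeq promoter windows of GRCm38.p6 that run from 250 bases before to 50 bases after each start. Of 32851 windows, 3.97% held them. Of the 10 genes, all of which had a window, Asns and Trib3 held them. Of other ATF4 target genes, 9 of 19 with a window did. The share of 3.97% counts windows, whereas a gene was counted when any of its windows held a match. The 10 genes had 12 windows and the 19 genes had 24, so these counts are not in the same unit. The stretches below show the letters in Asns, Trib3, Pck2 and Herpud1, which were higher in PGAM5 KD cells, in Slc7a11, which was lower, and in Atf3, which was not called (values below). Capitals mark the matched letters, and each stretch runs 5′ to 3′ on the strand of its gene. The Asns stretch (chr6:7693214-7693243, minus strand) covers positions -34 to -5 from the RefSeq start and lies within annotated exon sequence of GENCODE M21. The Trib3 stretch (chr2:152344031-152344060, minus strand) covers positions 1 to 30, of which only 2 bases are in a GENCODE exon. The Pck2 stretch (chr14:55540137-55540196, plus strand) ends at -70, the Herpud1 stretch (chr8:94386291-94386350, plus strand) at -79, the Slc7a11 stretch (chr3:50443637-50443696, minus strand) at -24 and the Atf3 stretch (chr1:191183410-191183469, minus strand) at -77, and these 4 stretches touch no annotated exon of their genes.
Asns: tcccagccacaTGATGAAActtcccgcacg
Trib3: agattagctcaggtTTACATCAgccgggcg
Pck2: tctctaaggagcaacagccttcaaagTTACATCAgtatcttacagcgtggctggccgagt
Herpud1: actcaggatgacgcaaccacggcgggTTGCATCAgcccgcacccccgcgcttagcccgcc
Slc7a11: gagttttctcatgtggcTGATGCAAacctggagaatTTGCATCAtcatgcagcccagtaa
Atf3: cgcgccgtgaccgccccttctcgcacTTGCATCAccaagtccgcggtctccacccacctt
A match is a description of letters and not of a bound site.

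The libraries held from 18165599 to 20178812 fragments in control and from 18163464 to 24388917 fragments in PGAM5 KD cells. Pgam5 itself was lower in all 3 PGAM5 KD libraries, with a log2 fold change of -1.40 (limma, adjusted p = 0.000358). Of 10 macrophage markers 9 were tested, of which 4 were higher and 3 lower, a share of 77.8% called against 31.7% of all genes tested. Their summed level, to which Lyz2 added most, was 3006 to 3091 FPKM in control and 2716 to 2743 FPKM in PGAM5 KD cells. Fcgr1 (log2 fold change 1.51), Adgre1 (0.85), Itgam (0.68) and Cd14 (0.56) were higher, and Csf1r (-0.64), Lyz2 (-0.40) and Cd68 (-0.20) were lower (named after their values were seen), and the part of these differences in the results that follow was not tested. Of 8 neutrophil and 8 fibroblast markers, 5 of each list were listed at 0 in all libraries, among them Ly6g and Col1a2 (named after their values were seen). The neutrophil marker Csf3r passed the filter, with 1.24 to 2.00 FPKM over the 6 libraries, and was not called, and the fibroblast marker Pdgfrb had 0.111 to 0.241 FPKM (both named after their values were seen). Summed over all genes, FPKM was 5.61% higher in PGAM5 KD than in control libraries. Scaling each library to TPM (values of a library scaled to a fixed sum) removes this and lowers the median log2 fold change of all genes tested from 0.013 to -0.060, so changes of a call or a direction under TPM or quantile normalization are given with the results.

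Log2(FPKM + 1) was compared with limma over 10540 genes, and a gene was called at an adjusted p-value under 0.05. Because of the added 1, differences of weakly expressed genes come out too small on this scale. Of all genes tested, 31.7% were called, 16.8% higher and 14.9% lower in PGAM5 KD cells. Under TPM, 10.3% were called higher and 21.7% lower. Of the 10 genes, 4 were higher (Trib3, Asns, Mthfd2 and Psat1), 1 was lower (Ddit3), and 5 were not called (Atf4, Atf5, Phgdh, Shmt2 and Sesn2). Trib3 had passed the filter only through the group in which it was high, and without a filter 3 were higher and Trib3 was not called (limma adjusted p = 0.0613). Their median log2 fold change was 0.14. Called with an absolute log2 fold change above 1 were 1.32% of all genes tested and 0 of the 10 genes. The libraries of both groups did not overlap for 7 of the 10 genes, against 47.1% of all genes tested. An exact permutation test of 3 libraries against 3 gives no p below 0.1, which is its value for each of these 7 genes.

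**Figure D1:**
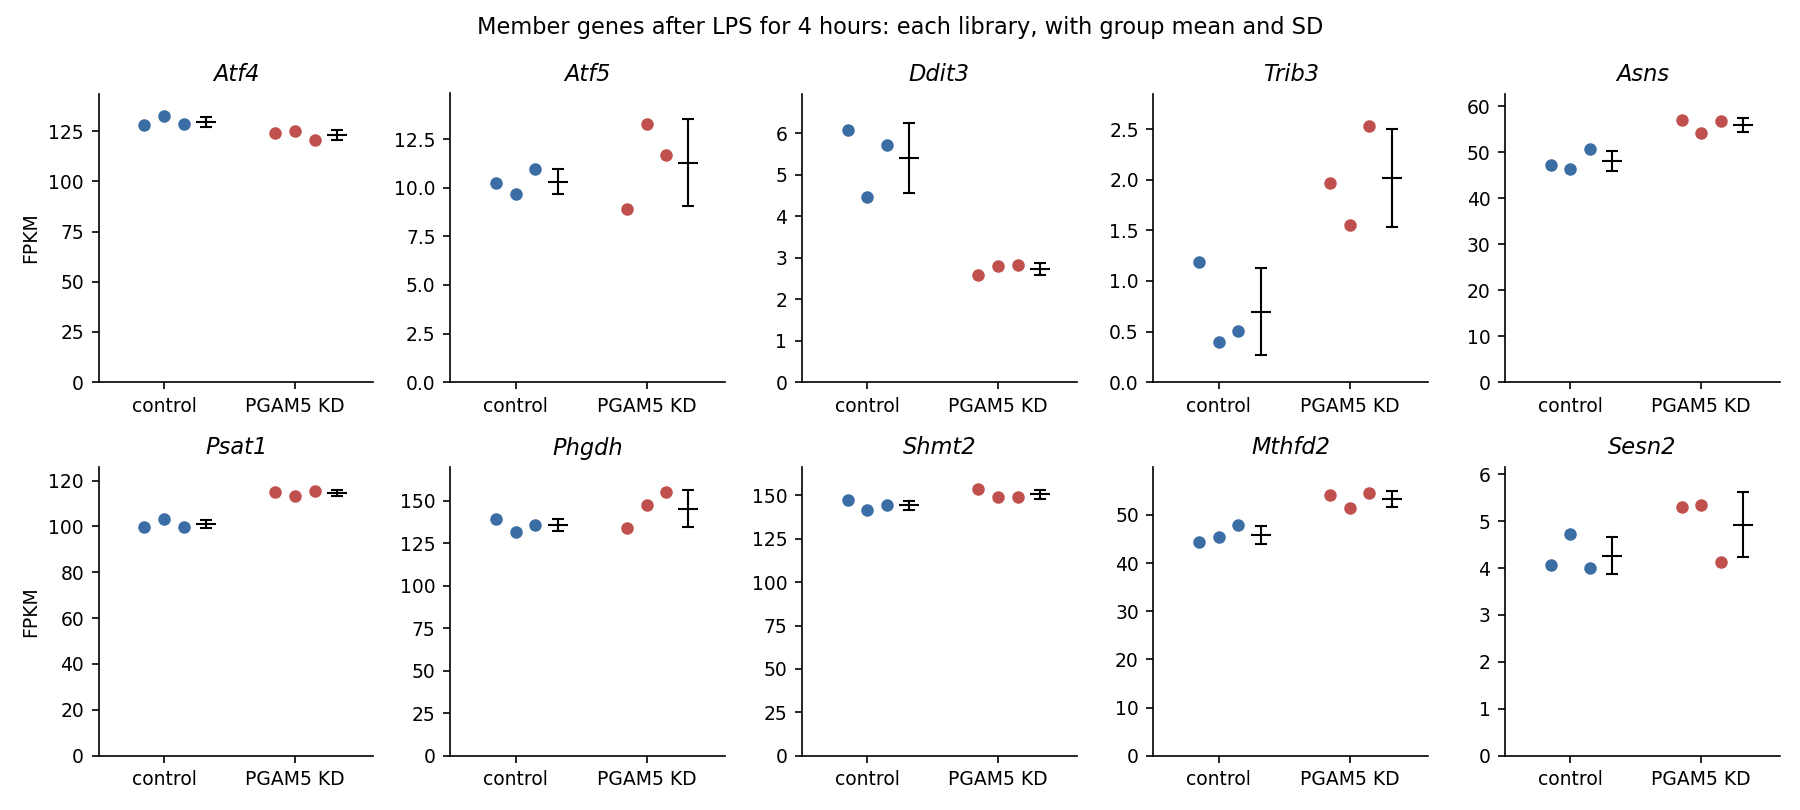
Level of each of the 10 genes in FPKM (vertical axes, from 0, a scale for each gene) in the 3 control and 3 PGAM5 KD libraries, with points for libraries and a bar for the group mean with its SD. All PGAM5 KD points lie below the control points for Ddit3 and Atf4 and above them for Trib3, Asns, Psat1, Shmt2 and Mthfd2, while the groups overlap for Atf5, Phgdh and Sesn2.

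Levels per length spanned a wide range. In control cells Shmt2 (144 ± 2.78 FPKM, SD, n = 3) and Phgdh (136 ± 3.73 FPKM) were highest, followed by Atf4 (129.7 ± 2.48 FPKM) and Psat1 (101 ± 1.84 FPKM). Phgdh and Atf4 were not separated, since the lowest Phgdh library, at 132 FPKM, was below the highest Atf4 library, at 133 FPKM. Asns (48.1 ± 2.21 FPKM) and Mthfd2 (45.9 ± 1.87 FPKM) formed a middle pair whose libraries overlapped. Atf5 (10.3 ± 0.64 FPKM), Ddit3 (5.41 ± 0.849 FPKM), Sesn2 (4.27 ± 0.394 FPKM) and Trib3 (0.698 ± 0.431 FPKM) were low. In PGAM5 KD cells Ddit3 (2.73 ± 0.136 FPKM, SD, n = 3) was below Sesn2 (4.92 ± 0.688 FPKM), with no overlap of their libraries, while in control cells the libraries of Ddit3 and Sesn2 overlapped. Trib3 (2.02 ± 0.488 FPKM) reached 2.53 FPKM in PGAM5 KD cells, just under the lowest Ddit3 library at 2.58 FPKM.

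Atf4 (ENSMUSG00000042406, chr15:80255184-80257541 of GRCm38, plus strand), the transcription factor at the centre of the response, had 128, 133 and 129 FPKM in control and 124, 125 and 121 FPKM in PGAM5 KD libraries. Every PGAM5 KD library was below every control library, by a small margin. The log2 fold change was -0.073 with a 95% confidence interval of -0.15 to -0.001 (limma, adjusted p = 0.112), so Atf4 was not called. Atf4 was called lower when libraries were scaled to TPM (-0.15, limma adjusted p = 0.0121) and with quantile normalization (-0.17, limma adjusted p = 0.00801).

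Atf5 (ENSMUSG00000038539, chr7:44812256-44816658, minus strand), a related bZIP factor whose mRNA is also translated more under eIF2 phosphorylation and which acts in the mitochondrial unfolded protein response, had 10.2, 9.70 and 11.0 FPKM in control and 8.90, 13.3 and 11.7 FPKM in PGAM5 KD libraries. The lowest and the highest of the 6 values were both in PGAM5 KD cells, so the groups overlapped. The log2 fold change of 0.11 was not called (95% confidence interval -0.20 to 0.41, limma adjusted p = 0.567). For Atf5 it was 0.25 without PGAM5 KD replicate 1 (limma adjusted p = 0.0562) and -0.010 without PGAM5 KD replicate 2. Its exons share 82 bases with the more abundant Nup62 on the opposite strand, and the sources used here do not say whether the libraries kept strand.

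Ddit3 (ENSMUSG00000025408, chr10:127290774-127296288, plus strand) encodes CHOP, a C/EBP-like factor that ATF4 induces and that takes part in cell death under prolonged stress. It had 6.07, 4.46 and 5.71 FPKM in control and 2.58, 2.80 and 2.82 FPKM in PGAM5 KD libraries, from 154 to 191 and from 87 to 118 fragments. The PGAM5 KD libraries lay close together, all below the lowest control library. The mean fell to 0.505 of the control mean, and the log2 fold change was -0.77 (SE 0.11, limma, adjusted p = 0.0022). In bulk RNA, fewer cells with a transcript and less transcript per cell cannot be told apart. Ddit3 shares 68 exon bases with Mars on the opposite strand, a tRNA synthetase gene with from 3313 to 5092 fragments per library whose log2 fold change was 0.15. The part of these shared bases in the values of Ddit3 was not tested. The call of Ddit3 held under every alternative in which it was tested, with log2 fold changes from -0.97 to -0.70. With a minimum mean of 5 FPKM it was not tested.

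Trib3 (ENSMUSG00000032715, chr2:152337422-152344032, minus strand) encodes a pseudokinase that ATF4 and CHOP induce. It had 1.19, 0.396 and 0.506 FPKM in control and 1.97, 1.55 and 2.53 FPKM in PGAM5 KD libraries, from 17 to 46 and from 60 to 131 fragments. The lowest PGAM5 KD value exceeded the highest control value, and both groups spread widely. The ratio of the means was 2.89, and the log2 fold change was 0.85 (SE 0.21, limma, adjusted p = 0.0212). With a pseudocount of 0.1 the log2 fold change of Trib3 was 1.51, and with voom on recovered fragments it was 1.71. This call rested on few fragments. It was lost without a filter on low values (limma adjusted p = 0.0613), without control replicate 2 (0.72, limma adjusted p = 0.0618), without control replicate 3 (0.77, limma adjusted p = 0.0644), without PGAM5 KD replicate 1 (0.85, limma adjusted p = 0.0528) and without PGAM5 KD replicate 3 (0.73, limma adjusted p = 0.074).

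Sesn2 (ENSMUSG00000028893, chr4:132492032-132510501, minus strand) encodes a stress-induced sestrin that binds leucine and restrains mTORC1. It had 4.07, 4.72 and 4.01 FPKM in control and 5.30, 5.34 and 4.13 FPKM in PGAM5 KD libraries. PGAM5 KD replicate 3 lay among the control libraries, whereas the other two were above them. The log2 fold change of 0.17 was not called (95% confidence interval -0.081 to 0.41, limma adjusted p = 0.269). For Sesn2 it was 0.27 without PGAM5 KD replicate 3 (limma adjusted p = 0.0763) and 0.11 without PGAM5 KD replicate 2. Of its relatives and those of Trib3, Sesn1 and Trib1 were tested and not called, with log2 fold changes of -0.23 and 0.29 (limma, adjusted p = 0.0793 and 0.0603). Sesn3 and Trib2 were below the filter. All 4 relatives were named after their values were seen. Under TPM 1 of these relatives was called.

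Asns (ENSMUSG00000029752, chr6:7675169-7693254, minus strand), which makes asparagine from aspartate and glutamine and is a long-known ATF4 target, had 47.3, 46.5 and 50.6 FPKM in control and 57.0, 54.1 and 56.8 FPKM in PGAM5 KD libraries. All PGAM5 KD libraries were above all control libraries. The mean was 16.3% higher, with a log2 fold change of 0.21 (SE 0.044, limma, adjusted p = 0.011). Scaled to TPM the log2 fold change was 0.14 and the call was lost (limma adjusted p = 0.0635).

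Phgdh (ENSMUSG00000053398, chr3:98313170-98339990, minus strand), which takes the first step from the glycolytic intermediate 3-phosphoglycerate, had 139, 132 and 136 FPKM in control and 134, 147 and 155 FPKM in PGAM5 KD libraries. PGAM5 KD replicate 1 lay among the control libraries and the other two above them. The difference, 0.10 on the log2 scale, was not called (95% confidence interval -0.034 to 0.23, limma adjusted p = 0.229). The value for Phgdh moved with single libraries, to 0.15 and called without PGAM5 KD replicate 1 (limma adjusted p = 0.0317) and to 0.050 without PGAM5 KD replicate 3 (limma adjusted p = 0.521). It was 0.019 under TPM and 0.010 under quantile normalization. Phgdh has 22 resembling genes, mostly processed pseudogenes. From 81.7% to 86.5% of the fragments on all of them were on Phgdh, and the log2 difference of the summed fragments was 0.10 as well.

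Psat1 (ENSMUSG00000024640, chr19:15904678-15947337, minus strand), the aminotransferase of the second step, had 99.9, 103 and 99.9 FPKM in control and 115, 113 and 116 FPKM in PGAM5 KD libraries. The groups were tight and did not overlap. The mean rose by 13.5%, with a log2 fold change of 0.18 (SE 0.029, limma, adjusted p = 0.00414). The call held under every alternative, TPM included (0.10, limma adjusted p = 0.044).

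The mitochondrial folate enzymes are Shmt2, which splits serine into glycine and a one-carbon unit, and Mthfd2, which oxidizes that unit. Shmt2 (ENSMUSG00000025403, chr10:127517123-127522444, minus strand) had 147, 142 and 144 FPKM in control and 153, 149 and 149 FPKM in PGAM5 KD libraries. The groups did not overlap, but the difference of 0.061 on the log2 scale was not called (95% confidence interval -0.008 to 0.13, limma adjusted p = 0.16), and its sign turned under TPM (-0.017) and quantile normalization (-0.019). Mthfd2 (ENSMUSG00000005667, chr6:83305691-83325908, minus strand) had 44.4, 45.4 and 48.0 FPKM in control and 54.1, 51.5 and 54.5 FPKM in PGAM5 KD libraries. Here too the lowest PGAM5 KD library was above the highest control library. The mean was 16.2% higher, with a log2 fold change of 0.21 (SE 0.043, limma, adjusted p = 0.0102). Scaled to TPM it was 0.14 and the call was lost (limma adjusted p = 0.0607). Shmt2 and Ddit3 lie 220.8 kb apart on chromosome 10.

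**Figure D2:**
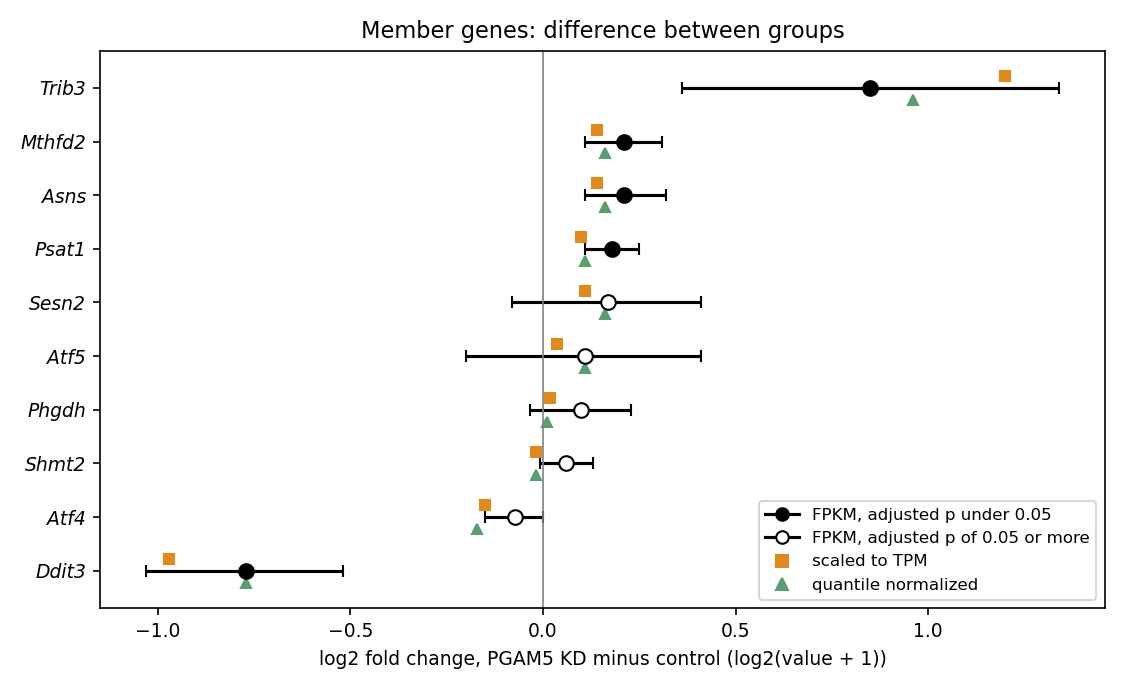
Log2 fold change of each of the 10 genes, PGAM5 KD minus control (horizontal axis, log2 of the value + 1), with the 95% confidence interval from limma on FPKM (circles, filled where the adjusted p was under 0.05) and the values after scaling to TPM (squares) and quantile normalization (triangles). Ddit3 at -0.77 and Trib3 at 0.85 stand at opposite ends, Mthfd2, Asns and Psat1 lie between 0.18 and 0.21, and Shmt2 is the gene whose sign turns with the scaling.

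Ratios of 2 genes within a library do not move with any scaling of that library, so 8 pairs, chosen after the values were seen, are described as well. The exact permutation test gave p = 0.1, its lowest possible value, for 7 pairs and p = 0.4 for Psat1 over Phgdh. Since the pairs were chosen by their values, no conclusion is drawn from this test. Ddit3 was 4.75%, 3.36% and 4.44% of Atf4 in control and 2.08%, 2.24% and 2.34% in PGAM5 KD libraries. Trib3 was 0.932%, 0.299% and 0.393% of Atf4 in control and 1.59%, 1.24% and 2.10% in PGAM5 KD libraries. The log2 differences were -0.90 for Ddit3 and 1.75 for Trib3, which passed the filter only through the PGAM5 KD libraries. Asns was 37.1% ± 2.14 of Atf4 in control and 45.4% ± 1.97 in PGAM5 KD (SD, n = 3). Mthfd2 was 31.8% ± 1.57 of Shmt2 in control and 35.4% ± 1.07 in PGAM5 KD (SD, n = 3). Psat1 relative to Phgdh overlapped between the groups, at 74.5% ± 3.35 and 79.1% ± 5.92.

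**Figure D3:**
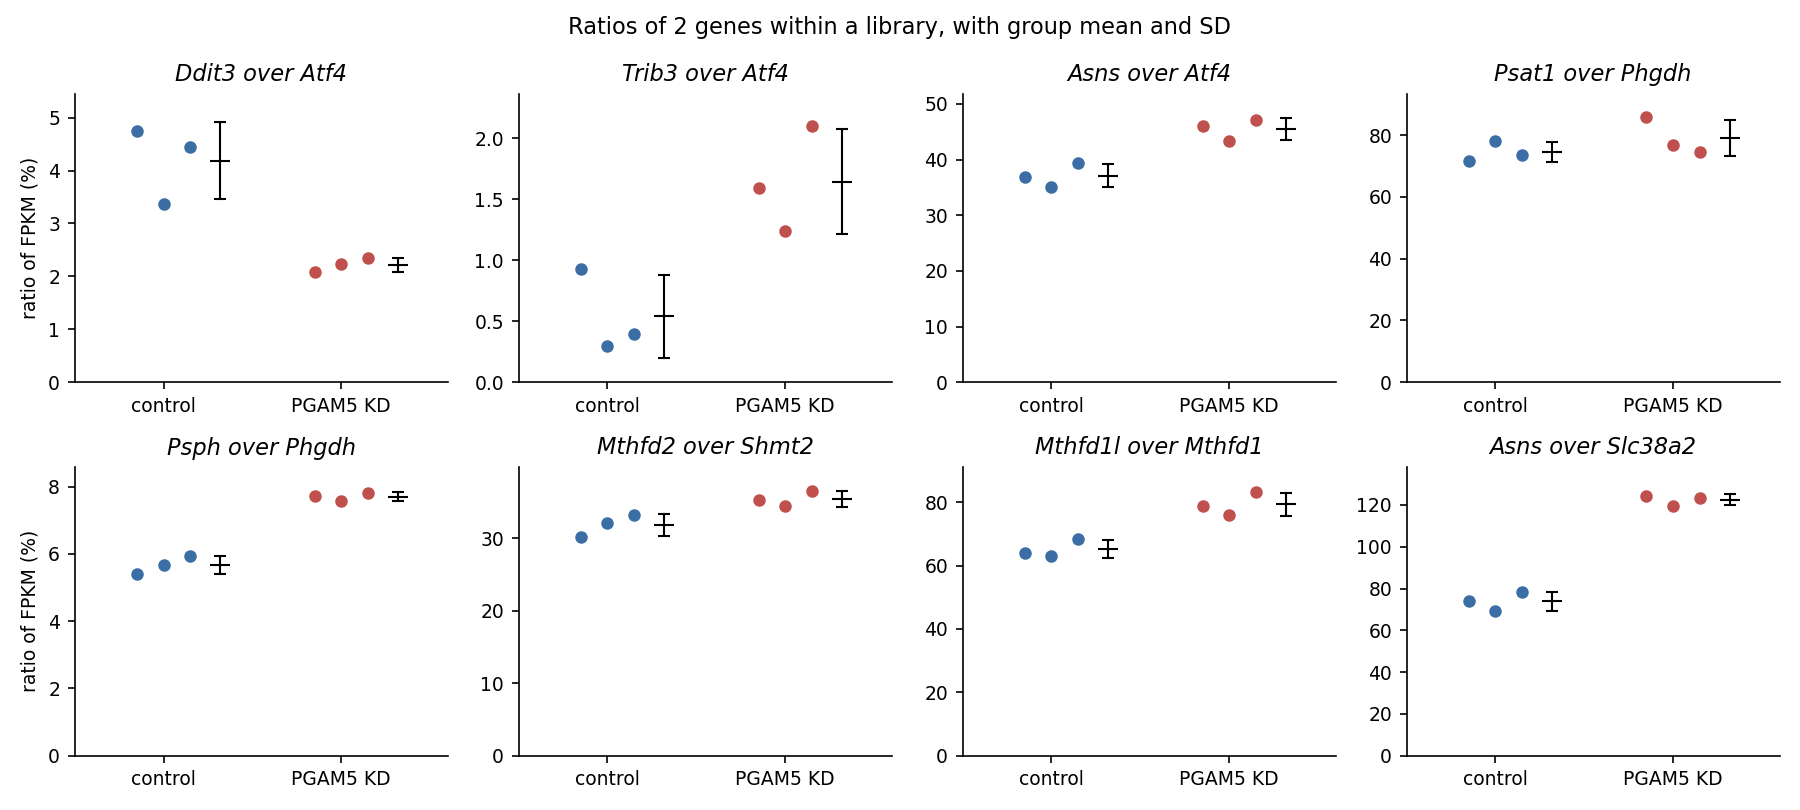
FPKM of 1 gene as a percentage of another in the same library (vertical axes, from 0) for the 8 pairs, with points for the 3 control and 3 PGAM5 KD libraries and a bar for the group mean with its SD. The groups overlap for Psat1 over Phgdh, Ddit3 over Atf4 is lower in PGAM5 KD cells, and the other 6 pairs, chosen after the values were seen, are higher.

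Upstream of Atf4, 1 of the 4 eIF2alpha kinase genes was called, a share of 25.0% against 31.7% of all genes tested. Eif2ak2, the interferon-induced kinase PKR that senses double-stranded RNA, had 25.7, 26.0 and 26.8 FPKM in control and 35.5, 33.8 and 32.2 FPKM in PGAM5 KD libraries, a log2 fold change of 0.36 (SE 0.045, limma, adjusted p = 0.00151). The groups did not overlap, and the call of Eif2ak2 held under every alternative. The heme-regulated Eif2ak1 (0.017), the ER kinase Eif2ak3, or PERK (-0.12), and the amino acid sensor Eif2ak4, or GCN2 (-0.12), were not called (limma, adjusted p = 0.851, 0.493 and 0.187). The sign of Eif2ak1 turned under TPM (-0.058).

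Of the 10 genes of the eIF2 complex, its exchange factor eIF2B and the eIF2alpha phosphatase, 5 were higher and 0 lower, with a median log2 fold change of 0.15, where 16.8% of all genes tested were higher and 14.9% lower. All 3 eIF2 subunit genes were among them, Eif2s2 at 0.19, Eif2s3x at 0.16 and Eif2s1 at 0.14, as were the eIF2B genes Eif2b5 at 0.25 and Eif2b4 at 0.15. Under TPM limma called 0 of the 10 (the 5 genes had adjusted p from 0.0523 to 0.295). Eif2s2 kept its call with each library left out, whereas Eif2b5 lost it without control replicate 3 (limma adjusted p = 0.0614) and Eif2s1, Eif2s3x and Eif2b4 without 4 or 5 of the 6 libraries in turn (limma adjusted p up to 0.092). Quantile normalization also ended the calls of Eif2s1 (0.053, limma adjusted p = 0.362) and Eif2s3x (0.091, limma adjusted p = 0.129). Ppp1r15a (GADD34), the stress-induced phosphatase subunit and an ATF4 target named after its values were seen, had 9.62 ± 1.32 FPKM in control and 11.3 ± 0.17 FPKM in PGAM5 KD (SD, n = 3) and was not called (0.22, 95% confidence interval 0.012 to 0.43, limma adjusted p = 0.1). Without control replicate 3 it was called (0.31, limma adjusted p = 0.0189).

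PGAM5 sits in mitochondria, and mitochondrial stress reaches eIF2 through the protease OMA1 and its substrate DELE1. The list of 5 genes holds Oma1 and Dele1, with Yme1l1 and the prohibitin genes Phb and Phb2 beside them. Of these 5 genes, 2 were higher, both of them prohibitin genes, and 1 was lower. That is a share of 60.0% called against 31.7% of all genes tested. Dele1 was lower, with 14.2, 14.7 and 16.2 FPKM in control and 13.4, 11.0 and 11.2 FPKM in PGAM5 KD libraries and a log2 fold change of -0.32 (limma, adjusted p = 0.029). The lowest control library was only a little above PGAM5 KD replicate 1. The call of Dele1 was lost without control replicate 2 or 3 and without PGAM5 KD replicate 2 or 3 (limma adjusted p = 0.064, 0.0872, 0.087 and 0.0901), and without a filter (limma adjusted p = 0.0749). The prohibitin genes Phb (0.20) and Phb2 (0.14), scaffold proteins of the inner membrane, were higher (limma, adjusted p = 0.00317 and 0.0199). Phb2 lost its call under TPM (0.061), under quantile normalization (0.060) and without control replicate 2 or 3 or PGAM5 KD replicate 2 (limma adjusted p up to 0.0631). Oma1 (0.083) and Yme1l1 (0.15), both named after their values were seen, were not called (limma, adjusted p = 0.605 and 0.0601).

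Of the bZIP factors that pair or compete with ATF4, 8 of 9 were tested, 1 was higher and 2 were lower, a share of 37.5% called, close to the 31.7% of all genes tested. Cebpd, which encodes C/EBPδ, had from 21.2 to 23.2 FPKM in control and from 36.7 to 39.5 FPKM in PGAM5 KD libraries, a log2 fold change of 0.75 (SE 0.048, limma, adjusted p = 8.8e-05). Nfe2l2, which encodes the antioxidant regulator NRF2, had 39.1, 40.6 and 39.6 FPKM in control and 27.3, 26.6 and 26.0 FPKM in PGAM5 KD libraries, a log2 fold change of -0.56 (SE 0.037, limma, adjusted p = 9.4e-05). For both genes the gap between the groups was several times the spread within them. Cebpa (-0.36, limma adjusted p = 0.0167) was lower, and its call was lost without control replicate 3 (limma adjusted p = 0.051) and without PGAM5 KD replicate 2 (limma adjusted p = 0.0514). Cebpb (0.060), Cebpg (-0.067) and Atf3 (0.073), named after their values were seen, were not called (limma, adjusted p = 0.614, 0.516 and 0.123), and the signs of Cebpb and Atf3 turned under TPM, that of Atf3 also under quantile normalization (-0.015).

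Of 23 other ATF4 target genes, 16 passed the filter, of which 7 were higher and 3 lower, a share of 62.5% called against 31.7% of all genes tested, with a median log2 fold change of 0.13. The other 7 were below the filter, Vldlr and Fgf21 (named after their values were seen) at 0 in all libraries. The genes that were higher included Ddit4 (REDD1), an mTORC1 inhibitor, which had 1.47, 1.38 and 0.876 FPKM in control and 2.44, 4.02 and 3.06 FPKM in PGAM5 KD libraries (log2 fold change 0.89, SE 0.17, limma adjusted p = 0.00875). Cth, which makes cysteine from cystathionine, had 1.74, 1.28 and 1.36 FPKM in control and 3.20, 2.56 and 2.76 FPKM in PGAM5 KD libraries (0.65, SE 0.11, limma adjusted p = 0.00577). Like Trib3, these genes were low in control cells and did not overlap between the groups. The secreted glycoprotein gene Stc2 (0.54), the mitochondrial PEPCK gene Pck2 (0.43) and Herpud1 (0.32), which acts in ER-associated degradation, were higher as well (limma, adjusted p = 0.0112, 0.0116 and 0.000647).

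The 3 target genes that were lower were amino acid transporters. Slc7a11, the cystine importer xCT, had 10.8, 10.9 and 9.86 FPKM in control and 5.95, 5.44 and 5.18 FPKM in PGAM5 KD libraries, a log2 fold change of -0.82 (SE 0.066, limma, adjusted p = 0.000217). Slc38a2, the neutral amino acid transporter SNAT2, had 63.7, 67.2 and 64.6 FPKM in control and 45.8, 45.2 and 45.9 FPKM in PGAM5 KD libraries, a log2 fold change of -0.50 (SE 0.034, limma, adjusted p = 0.000104). Slc1a5 (ASCT2) fell by 0.20 on the log2 scale (limma, adjusted p = 0.00214). The heavy and light chains of the leucine exchanger, Slc3a2 (-0.072) and Slc7a5 (-0.068), and Chac1 (0.051), which degrades glutathione, were not called (limma, adjusted p = 0.264, 0.186 and 0.883). Slc7a5 was called lower under TPM and quantile normalization (-0.15 under each, limma adjusted p = 0.0272 and 0.018), and the sign of Chac1 turned under TPM (-0.019). Slc1a5, Slc3a2, Slc7a5, Chac1 and Herpud1 were named after their values were seen. Asns, whose product makes an amino acid, was 73.9% ± 4.59 of the transporter gene Slc38a2 in control and 123% ± 2.55 in PGAM5 KD (SD, n = 3), a log2 difference of 0.73. This pair was chosen after the values were seen. It joins a gene called higher to a gene called lower, so the direction of the ratio was fixed in advance.

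Of the 20 cytosolic aminoacyl-tRNA synthetase genes, whose products charge tRNAs with amino acids and several of which ATF4 activates, 7 were higher and 0 lower, with a median log2 fold change of 0.086. The share called was 35.0%, all of it higher, where 16.8% of all genes tested were higher and 14.9% lower. The seryl-tRNA synthetase gene Sars moved furthest, with from 49.5 to 54.0 FPKM in control and from 65.8 to 67.0 FPKM in PGAM5 KD libraries (log2 fold change 0.37, SE 0.041, limma adjusted p = 0.000878). Gars (0.22), Hars (0.21), Kars (0.19), Mars (0.15) and Nars (0.15) followed (limma, adjusted p = 0.00536, 0.00336, 0.026, 0.0224 and 0.0425). Sars, Gars and Hars kept their calls under every alternative, whereas Kars, Mars and Nars lost theirs under TPM and quantile normalization and without 4 or 5 of the 6 libraries in turn (limma adjusted p up to 0.107). Letters of the C/EBP-ATF element were found in the windows of 5 of the 12 synthetase genes with a window, among them Gars but also Tars and Iars, both named after their values were seen, whose log2 fold changes were 0.006 and 0.004.

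Among 14 tested of 18 other enzymes and carriers of serine, glycine and folate one-carbon metabolism, 4 were higher and 1 lower, a share of 35.7% called, again close to that of all genes tested, with a median log2 fold change of 0.041. Psph, the phosphatase of the last step of serine synthesis, had 7.53, 7.46 and 8.06 FPKM in control and 10.3, 11.2 and 12.1 FPKM in PGAM5 KD libraries (log2 fold change 0.49, SE 0.066, limma adjusted p = 0.00203). Of the 3 serine synthesis enzymes, Psph and Psat1 were thus called higher and Phgdh was not, and Psph was 5.67% ± 0.259 of Phgdh in control and 7.70% ± 0.124 in PGAM5 KD (SD, n = 3). Mthfd1l, which makes formate in mitochondria from the product of Mthfd2, had 37.1, 36.0 and 38.2 FPKM in control and 45.3, 45.8 and 46.6 FPKM in PGAM5 KD libraries (0.30, SE 0.036, limma adjusted p = 0.00123). Its cytosolic counterpart Mthfd1 was not called (0.023, limma adjusted p = 0.682), and Mthfd1l was 65.2% ± 2.87 of Mthfd1 in control and 79.4% ± 3.72 in PGAM5 KD (SD, n = 3). Tyms (0.20), which makes thymidylate, and Dld (0.14), a subunit of the glycine cleavage system and of other mitochondrial dehydrogenases, were higher, and methionine synthase Mtr (-0.29) was lower (limma, adjusted p = 0.0329, 0.0435 and 0.0115). Dld lost its call under quantile normalization (0.052, limma adjusted p = 0.422), and Tyms and Dld lost theirs under TPM and without 4 or 5 of the 6 libraries in turn (limma adjusted p up to 0.131). The mitochondrial formyltetrahydrofolate oxidizer Aldh1l2 had the highest log2 fold change of the list, 0.51, and missed the threshold (limma, adjusted p = 0.0528). Aldh1l2 and Mthfd1 were named after their values were seen.

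The other arms of the ER stress response were listed to set beside Ddit3, which they can also induce. Of 14 genes of the ATF6 and IRE1 arms, 3 were higher and 3 lower, a share of 42.9% called against 31.7% of all genes tested, with a median log2 fold change of 0.11. The chaperone genes Manf (0.34), Pdia4 (0.30) and Hspa5 (0.18), which encodes BiP, were higher (limma, adjusted p = 0.00193, 0.00556 and 0.0034). The ER degradation gene Edem1 (-0.44), Ern1 (-0.32), which encodes the sensor IRE1, and the disulfide isomerase gene Pdia6 (-0.13) were lower (limma, adjusted p = 0.000211, 0.0199 and 0.0399). Hspa5 lost its call under quantile normalization (0.063, limma adjusted p = 0.238), and Ern1 and Pdia6 lost theirs without 4 of the 6 libraries in turn (limma adjusted p up to 0.118). Ern1, Edem1 and Ddit3 thus had lower levels in the same libraries in which Hspa5 had higher ones, and no cause was tested.

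**Figure D4:**
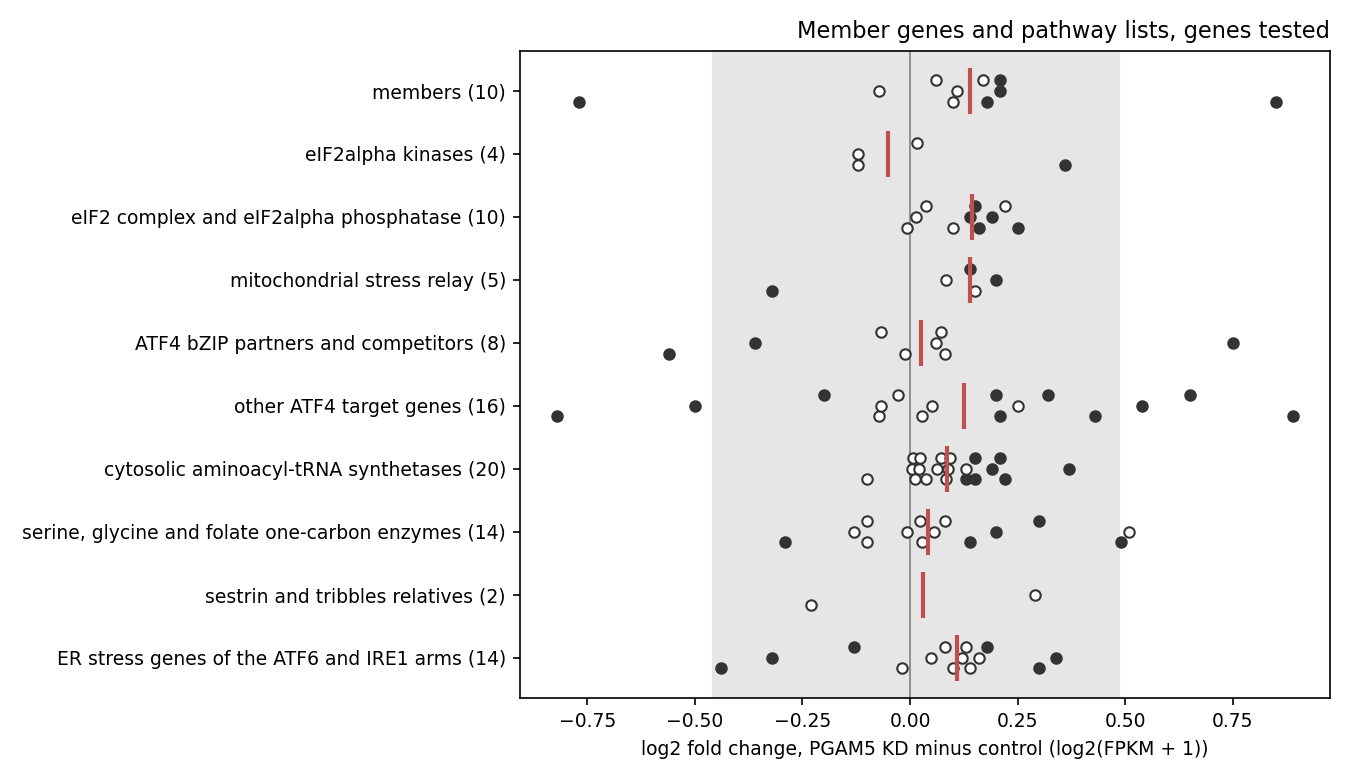
Log2 fold change, PGAM5 KD minus control (horizontal axis, log2 of FPKM + 1), of every gene tested in the 10 genes (members) and in each pathway list, with the number tested in brackets. Filled points had a limma adjusted p under 0.05, red bars are list medians, and the grey band spans the 5th to 95th percentile of all genes tested (-0.46 to 0.49). Ddit3 and Trib3 lie outside the band on opposite sides. Among other ATF4 target genes, Slc7a11 and Slc38a2 lie below the band and Ddit4, Cth and Stc2 above it. In the remaining lists Nfe2l2 lies below it, Cebpd and Aldh1l2 lie above it, and Psph lies at its edge.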

How the data were processed

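RNA-seq of poly(A)-selected RNA from 3 control and 3 PGAM5 KD libraries was used, grouped by their labels. The authors deposited FPKM, 1 table per library. The submitters' processing notes name HISAT2 2.0.5, featureCounts 1.5.0-p3 and mm10, and the annotation is not given in the sources used here. The protocol covers both directional and non-directional libraries, so strand is unknown. Of 54532 gene identifiers, 54495 were in GENCODE M21 (GRCm38), which gave symbols, positions and exon lengths. Under 1000 fragments, 96.8% to 97.1% of FPKM values gave whole fragments within 0.01, which recovers depth. On a gene with 1 kb of exon, 1 fragment was worth between 0.041 and 0.0551 FPKM. Replicates of 1 group differed by more than sampling noise (chi-square divided by its degrees of freedom was 5.06 to 8.92).

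The test was limma 3.58.1 (R 4.3.3), two-sided, on log2(FPKM + 1) of genes whose mean reached 1 FPKM, with a trend of variance on mean and p-values adjusted by Benjamini-Hochberg over all genes tested. Since the unit is FPKM, fragments recovered from it were fitted only as an alternative (voom). On simulated data the fit recovered 194 of 197 genes changed 2-fold among 10469 genes tested, and 8.9% of its calls were false. Genes that resemble a named gene were found with blastn against GENCODE transcripts, and Mars1 of the lists is Mars in that annotation. Promoter windows came from RefSeq. Exact permutation tests, tables and figures used Python 3.11.15, pandas 2.3.3, scipy 1.17.1 and matplotlib 3.10.9.

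The 10 genes and all lists were chosen with earlier results of these data known. Named were the 10 genes, Pgam5, the 4 eIF2alpha kinases and at most 6 called genes of each other list by size of change. Genes of the lists that were named outside this rule are marked. A further list of cell type markers is not reported here. Alternatives were a pseudocount of 0.1, no filter, a mean of at least 5 FPKM, TPM, median centring, quantile normalization, no trend, array weights, a replicate block, voom on recovered fragments, and leaving out each library.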

Additional observations from a re-analysis of the deposited data

How the results depend on the processing

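Over 16 alternatives, 901 single gene values of 57 genes were recomputed. Of these 776 kept their direction and their side of the threshold, 106 fell below it, 6 passed it and 13 turned sign, all 13 without a call before or after. In log2 fold change, turned signs were, under TPM, Shmt2 (-0.017), Eif2ak1 (-0.058), Cebpb (-0.018), Atf3 (-0.004) and Chac1 (-0.019), under quantile normalization Shmt2 (-0.019) and Atf3 (-0.015), under array weights Chac1 (-0.035), and with 1 library left out Eif2ak1 (-0.006 without control replicate 2 and -0.028 without PGAM5 KD replicate 3, up to 0.059), Chac1 (-0.20 without PGAM5 KD replicate 1, up to 0.25), Atf5 (-0.010, up to 0.25) and Cebpb (-0.020, up to 0.15), both lowest without PGAM5 KD replicate 2. TPM gave 2 genes higher and 2 lower of the 10, quantile normalization gave 2 lower, and a minimum of 5 FPKM gave 0 lower, since Ddit3 was then not tested. The number of the 10 called higher was 3 to 4 with each library left out. Of all genes tested, 6.36% were higher and 6.09% lower with no filter, 10.3% and 21.7% under TPM, and 13.6% and 16.3% under quantile normalization. These shares were 14.7% and 14.9% without the trend, 17.5% and 15.6% with array weights, and 18.8% and 18% with voom. A library left out gave 11.5% to 14.1% and 10.7% to 12.9%, and a minimum of 5 FPKM 21.5% and 17.5%, in place of 16.8% and 14.9%. The eIF2 complex list had 3 calls with no filter, 0 under TPM, 3 under quantile normalization, 3 without the trend and 2 to 4 with each library left out, in place of 5. The synthetase list had 4, 4, 3, 3 and 3 to 4 in the same order, in place of 7. The one-carbon list had 3 with no filter and 3 to 4 with each library left out, in place of 5, the mitochondrial relay 1 to 3 in place of 3, and other ATF4 targets 6 with a minimum of 5 FPKM in place of 10. The sestrin and tribbles relatives had 1 call under TPM, without the trend and with array weights, 2 with voom and 0 to 1 with each library left out, in place of 0. Calls over all genes tested ranged from 2342 to 2843 with a library left out, fewer samples entering each fit. Other causes were not tested.

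Deviations of same-numbered libraries correlated at -0.02, 0.016 and -0.052 and those of other pairs at -0.063 to 0.081, so no pairing by replicate number was seen. With 3 libraries in each group these values cannot decide whether samples were handled in pairs. With the number as a replicate block, calls over all genes tested were 2652 (13.7% higher and 11.5% lower). Of the 10 genes 4 were higher and 1 lower, the eIF2 complex list had 1 call and the sestrin and tribbles list 1. Depth limits Trib3, with as few as 17 fragments in a library.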
